A study of Mus musculus with 63 samples.

Results

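The genes described here are 56 mouse genes that build or run the motile cilium, out of 34745 genes in each of 2 tables, one for ovary and one for pituitary. They were taken by name: every numbered gene called Dnah, Dnaic, Dnaaf, Tekt, Rsph or Cfap, plus Hydin, Foxj1, Spag16 and Spag17. By role they are 15 axonemal dynein heavy chains, 2 dynein intermediate chains, 4 dynein assembly factors, 8 radial spoke genes, 3 central pair genes, 5 tektins, 18 genes named for association with cilia and flagella, and Foxj1. All 56 names occur once in both tables, and the naming rule uses no expression value. After a filter on low counts 52 members were tested in ovary and 47 in pituitary.

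The animals were female C57BL/6 mice, either controls or exposed to CUMS (chronic unpredictable mild stress), in which mild stressors of several kinds follow each other irregularly. Sample titles give an age of 2 or 6 months (2M, 6M) and a duration of 8 or 12 weeks (8W, 12W), so that each tissue has 4 sets named 2M-8W, 6M-8W, 2M-12W and 6M-12W. Every set has 4 stressed and 4 control libraries, except that 6M-12W ovary has 3 controls, which gives 31 ovary and 32 pituitary libraries. The design text of the series can be read as pairing the younger animals with the shorter stress and the older with the longer, whereas the titles hold all 4 combinations, and the titles were followed. All groups share sex and strain, and no allele or drug is named. Nothing in the sources used here says that numbered samples came from separate animals, so the p-values measure the spread between these samples. The sources used here do not say whether dissected ovaries included oviduct, nor do they name a sequencing batch or the estrous stage.

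Motile cilia beat by means of an axoneme, a ring of doublet microtubules around a central pair. Outer and inner dynein arms are the motors, and their heavy chains are the Dnah genes. Radial spokes and the central pair regulate the beat, tektins lie in the wall of the doublets, and Dnaaf proteins assemble dynein arms in the cytoplasm before they enter the cilium. Foxj1 is the transcription factor that switches on the programme, and Rfx factors act beside it through the X-box motif. In the female tract motile cilia are borne by the multiciliated cells of the oviduct, next to the ovary. The endocrine cells of the pituitary are not multiciliated.

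Short windows before the start of 5 members show the sequence feature that was looked for, an X-box-like palindrome. The motif was searched as the half-sites GTTNCC and GNAAC with 3 bases between them, on both strands, in the RefSeq promoters of build GRCm38.p6, each running from 250 bases before to 50 bases after the gene's start. Of the 56 members 47 were matched by symbol, and 7 of these held the motif, against 0.936% of all 27025 genes in the table and 0.804% of its 32851 promoters. The windows read along the gene's strand, end at the start site at the latest, and have the motif in capitals.
Hydin, chr8:110266936-110266976, plus strand: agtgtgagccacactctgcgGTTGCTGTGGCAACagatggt
Spag16, chr1:69826847-69826900, plus strand: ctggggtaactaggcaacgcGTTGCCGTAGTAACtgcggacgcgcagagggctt
Cfap44, chr16:44394752-44394798, plus strand: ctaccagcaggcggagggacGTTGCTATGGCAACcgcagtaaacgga
Cfap45, chr1:172521091-172521129, plus strand: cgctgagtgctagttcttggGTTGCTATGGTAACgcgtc
Dnaaf2, chr12:69198430-69198466, minus strand: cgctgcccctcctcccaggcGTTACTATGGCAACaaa
The other members with a match were Cfap61 and Tekt4. A match is a description of letters and not a binding site. The first 4 genes shown were high in the same few ovary libraries described below, and the fifth, Dnaaf2, was level across all ovaries.

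Total counts ran from 12536371 to 28777668 in ovary (median 20297251) and from 13514270 to 24924584 in pituitary, so that a limit of 3 counts stands for 0.104 to 0.239 CPM (counts scaled to the library total) in ovary and 0.120 to 0.222 CPM in pituitary. Ovary libraries carried ovary markers at a summed 3294 to 6846 CPM over 10 genes, and pituitary libraries carried pituitary markers at a summed 164272 to 236933 CPM over 10 genes. One 2M-12W control ovary (replicate 1) held pituitary markers at 1559.8 CPM, against 1.73 to 139.9 CPM in the other ovaries. Some ovary libraries, all from the 2M-8W and 2M-12W sets, stood apart in 1 or more markers of the oviduct. They enter the ovary comparisons below that use those sets. Comparisons within the other sets share only the fit with them. Pax8, a Müllerian duct factor, was at 34.4 CPM in 2M-8W stressed 1, at 2.15 in 2M-8W stressed 3, at 2.12 and 2.96 in 2M-12W controls 3 and 4, at 2.22 in 2M-12W stressed 2, and at 1.55 CPM or less in the other 26 ovaries. Ovgp1, the oviduct-specific glycoprotein, reached 1899 CPM in the first of these, 151, 111, 330.3 and 65.8 CPM in the others, and 2.83 to 101 CPM in the other 26. The 12 oviduct secretory markers summed to 2116 CPM in 2M-8W stressed 1, 271 in 2M-8W stressed 3, 234 and 450.4 in 2M-12W controls 3 and 4, 184 in 2M-12W stressed 2, and 81.4 to 197 CPM in the other 26. Ovgp1 is one of these 12 and made up most of the sum in 2M-8W stressed 1 and in 2M-12W control 4. Hoxc6, Muc16 and Hoxa9 of the list were highest in 2M-12W controls 2, 1 and 4, and the rest in 2M-8W stressed 1. For Ovgp1 and for the sum, 2M-12W stressed 2 lay within the range of the other 26. In the pituitary Pax8 was at 0 in 29 of 32 libraries. Results that rest on these 5 ovaries are given with and without them, except where stated. The level of 2 CPM was chosen after the data were seen.

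Most motile cilia genes were high in a few young ovaries and low in the rest. Foxj1 (chromosome 11, 116330704 to 116335399, GRCm38, minus strand) shows the pattern. In 2M-8W it was at 0.576, 0.518, 2.45 and 0.449 CPM in controls and at 98.1, 2.65, 23.2 and 0.429 CPM in stressed ovaries. In 2M-12W it was at 3.86, 2.36, 25.5 and 10.4 CPM in controls and at 1.27, 8.47, 0.472 and 2.73 CPM in stressed ovaries. Its 5 highest libraries are thus 2 stressed ovaries of one set and 2 controls and 1 stressed ovary of another, and they are the 5 with the most Pax8. In the 15 ovaries of 6-month animals Foxj1 lay between 0.365 and 2.34 CPM, and controls and stressed overlapped in both sets.

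Hydin, a central pair protein whose loss impairs ciliary beating (chromosome 8, 110266977 to 110610253, plus strand), followed the same libraries. It was at 53.1 CPM in 2M-8W stressed 1, 14.04 in 2M-8W stressed 3, 13.8 in 2M-12W control 3, 3.50 in 2M-12W stressed 2 and 2.37 in 2M-12W control 4. The other 26 ovaries held 0.041 to 1.93 CPM, with a median of 0.336. Dnah5, the heavy chain of the outer arm that is often mutated in primary ciliary dyskinesia, was at 85.0, 31.1, 19.8, 6.36 and 7.25 CPM in those libraries in the same order. In the other 26 it was at 0 to 3.16 CPM, with a median of 0.487. The ratio of the highest library to the median of the 26 was 158 for Hydin, 175 for Dnah5, 149 for Foxj1 and 95.3 for the inner arm heavy chain Dnah12.

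**Figure D1:**
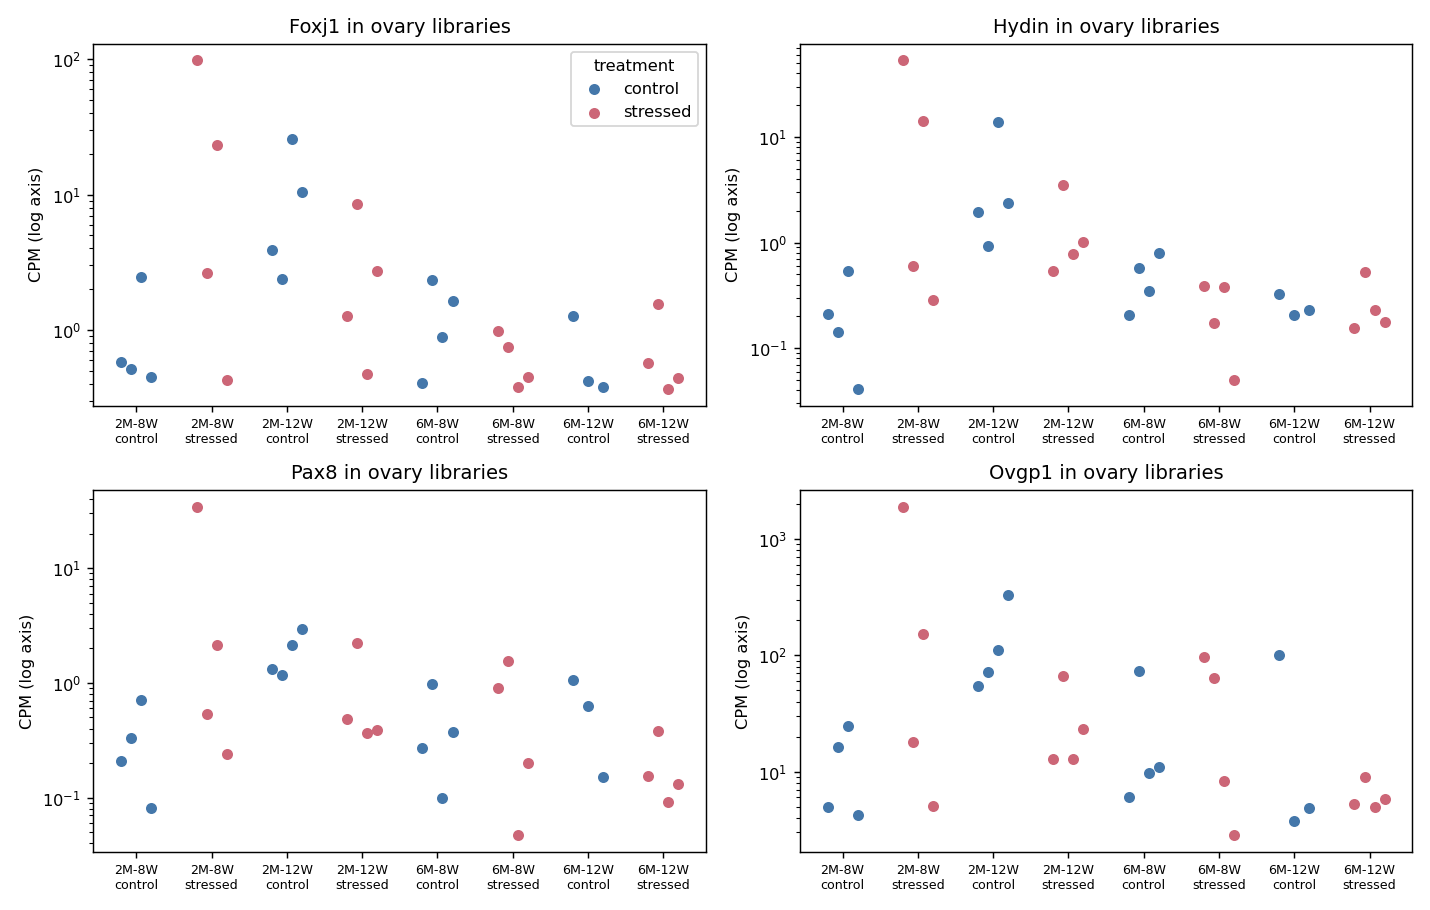
Each point is 1 ovary library, by set and treatment, and each panel is 1 gene on a log axis in CPM: the members Foxj1 and Hydin, and the oviduct markers Pax8 and Ovgp1. The highest point in all 4 panels is 2M-8W stressed 1 (98.1, 53.1, 34.4 and 1899 CPM), and libraries of the 6-month sets stay at or under 2.34 CPM for Foxj1.

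Over all members the order of libraries was alike. In 46 of 56 members the highest ovary was 2M-8W stressed 1. In 39 of 56 the 3 highest ovaries were 2M-8W stressed 1, 2M-8W stressed 3 and 2M-12W control 3. In 19 of 56 the 5 highest were the 5 with the most Pax8, and in 19 more 4 of the 5 were. Genes of all roles took part: the 3 ovaries named were the highest for 9 of 15 heavy chains, 2 of 2 intermediate chains, 2 of 4 assembly factors, 5 of 8 radial spoke genes, 3 of 3 central pair genes, 2 of 5 tektins, 15 of 18 Cfap genes and Foxj1. Summed over the 56 members the level was 1467 CPM in 2M-8W stressed 1, 697 in 2M-8W stressed 3, 638 in 2M-12W control 3, 497 in 2M-12W stressed 2 and 437 in 2M-12W control 4. The other 26 ovaries summed to 332 to 442 CPM.

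Members differed in how far the high libraries stood apart. Among the 37 members picked for having these 3 highest ovaries, with at least 20 counts in 2M-8W stressed 3, the ratio of 2M-8W stressed 1 to stressed 3 had a median of 3.07 and ran from 1.23 (Rsph9) to 4.93 (Cfap46). The secretory marker Ovgp1 and Foxj1 ranked the high libraries differently. Ovgp1 was 330.3 CPM in 2M-12W control 4 beside 10.4 CPM of Foxj1, but 111 CPM in 2M-12W control 3 beside 25.5 CPM of Foxj1. In 6M-12W control 1 and 6M-8W stressed 1 Ovgp1 was at 101 and 96.3 CPM, with Foxj1 at only 1.26 and 0.989 CPM.

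**Figure D2:**
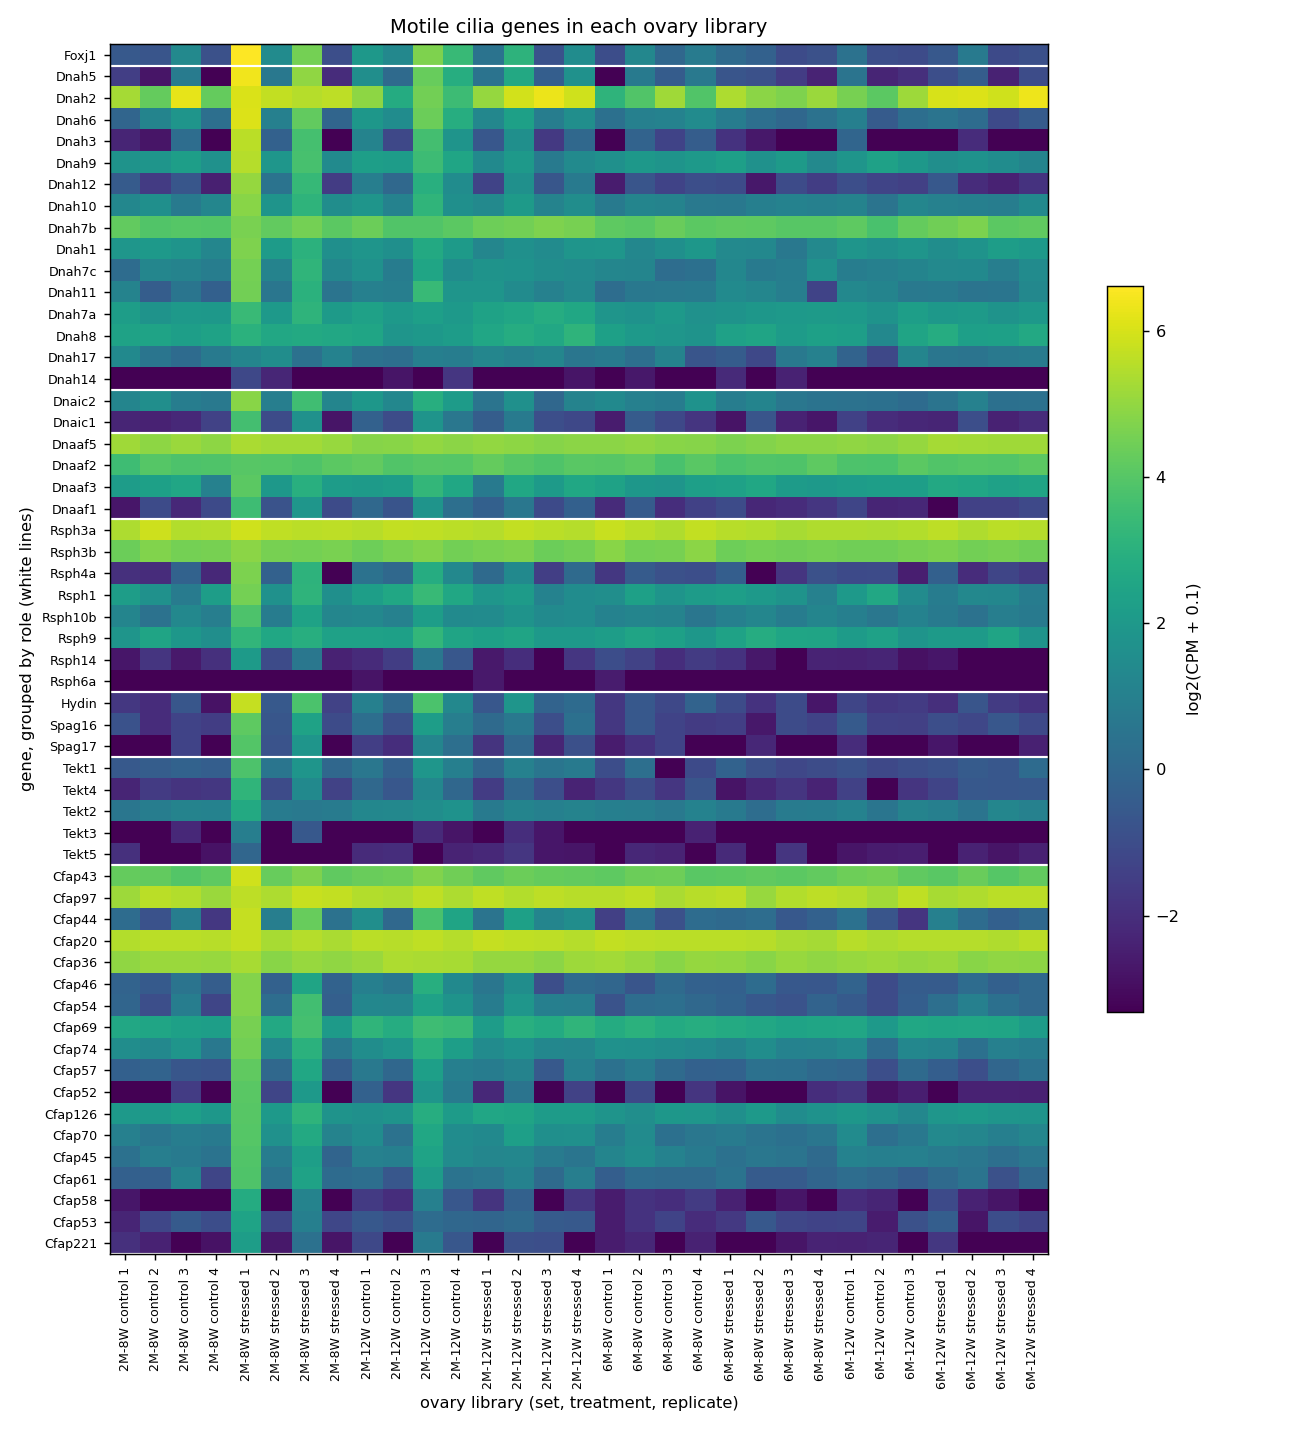
Colour gives log2(CPM + 0.1) of each member (rows, grouped by role and ordered by highest level within a role) in each of 31 ovary libraries (columns). The bright columns are 2M-8W stressed 1, 2M-8W stressed 3 and 2M-12W control 3, while rows such as Cfap20, Rsph3a and Dnaaf5 are even across all columns.

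A smaller group of members was level across the ovaries. On the FPKM scale, which divides by gene length and so allows genes to be compared, the 6 highest members in ovary were Cfap20 (median 36.1 FPKM), Rsph3a (21.2), Rsph3b (14.5), Cfap36 (9.36), Dnaaf5 (7.003) and Dnaaf2 (4.68). Cfap20, a protein of the doublet inner junction, ran from 38.8 to 53.8 CPM over all 31 ovaries. Rsph3a, a spoke stalk gene, ran from 39.6 to 59.0 CPM, and Dnaaf2 from 11.4 to 19.3 CPM. None of these had the 3 high ovaries as its top 3. Rsph3a and Rsph3b, and Dnah7a, Dnah7b and Dnah7c, are near-identical copies between which reads can be split, so their single values are uncertain. Other genes cover 75.6% of the exon bases of Dnaaf2, and the strand used in counting is not given in the sources used here.

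At the other end 25 members had a median under 1 CPM in the 26 ovaries with less Pax8. Rsph6a had no count in 28 of 31 ovaries and at most 0.068 CPM, and Dnah14 had no count in 23. Tekt3 had no count in 23 ovaries and reached 1.81 CPM in 2M-8W stressed 1. In bulk tissue, fewer cells of a type and less RNA per cell cannot be told apart.

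In the comparison of stressed with control ovaries of the 2M-8W set, 37 of 52 members tested were higher and none lower (edgeR's quasi-likelihood test, Benjamini-Hochberg adjusted p under 0.05). Over all genes 6.26% passed in this comparison, and 3.96% of all genes were higher. The members' median log2 fold was 2.24 and 50 of 52 were above 0, beside a median of 0.00 over all genes tested. Hydin had a log2 fold of 6.22 (SE 1.23, adjusted p 0.0147), Dnah5 of 5.98 (SE 1.38, adjusted p 0.0178), Foxj1 of 4.97 (SE 1.13, adjusted p 0.0178) and Dnah12 of 4.90 (SE 1.03, adjusted p 0.0157). Stressed and control ovaries nevertheless overlapped for all 4, since stressed 4 lay within or below the range of the controls for each.

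Other members with large folds were Dnah3, an inner arm heavy chain (5.72, SE 1.47), the spoke head gene Rsph4a (4.85, SE 1.14) and the outer arm intermediate chain Dnaic1 (4.59, SE 1.06), with edgeR adjusted p of 0.0253, 0.0193 and 0.0178. The assembly factor Dnaaf1 (3.98, SE 0.89), the outer arm heavy chain Dnah11 (2.76, SE 0.70), Cfap53 (2.38, SE 0.69) and Cfap43 (0.75, SE 0.22) also rose, with edgeR adjusted p of 0.0174, 0.0246, 0.0406 and 0.0420. Of the exon bases of Cfap43, 3.5% overlap with other genes, among them Itprip on the same strand. Cfap126 and Dnaaf3 had folds of 0.93 each and did not pass (edgeR adjusted p 0.0825 and 0.142). For Cfap58, Cfap52 and Spag17 the controls were almost empty, and counts are given in place of folds. Cfap58 had 1, 0, 0 and 0 counts in controls and 117, 0, 26 and 0 in stressed ovaries. Cfap52 had 0, 0, 4 and 0 counts in controls and 290, 6, 51 and 0 in stressed ovaries. Spag17, a central pair gene, had 0, 0, 5 and 0 counts in controls and 263, 9, 44 and 0 in stressed ovaries. In all 3 the counts sat in stressed 1 and stressed 3, and stressed 4 was at 0.

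The number of calls in this set depended on single libraries. Without 2M-8W stressed 1 no member passed and the median fold was 1.15. Without control 2 or without control 4 none passed either, although the median folds of 2.32 and 2.19 were close to the 2.24 of all libraries. The count was 28 to 39 with any other library of the set left out. Leaving out the 5 ovaries with the most Pax8 kept stressed 2 and stressed 4 beside all controls of this set. None of 47 members then passed, and 1 gene of 17865 did. The median member fold was then 0.17, with Hydin at 0.97, Foxj1 at 0.64, Dnah5 at 0.76 and Dnah12 at 1.05. Among the other members named as higher, Dnaaf1 had 0.82, Dnah3 0.38, Dnaic1 0.37, Rsph4a 0.35, Dnah11 0.17, Cfap43 0.07 and Cfap53 -0.13, while Cfap58, Cfap52 and Spag17 had too few counts to be fitted. Folds of 5 more core members that had passed were then below 0: Dnah6 (-0.50), Dnah9 (-0.23), Cfap45 (-0.22), Cfap46 (-0.14) and Dnaic2 (-0.077). Fitted on the 8 libraries of the set alone no member passed (edgeR), while DESeq2 on all libraries called 37. Except for the fit without the 5 ovaries, the share of all genes that passed was not set beside these counts.

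**Figure D3:**
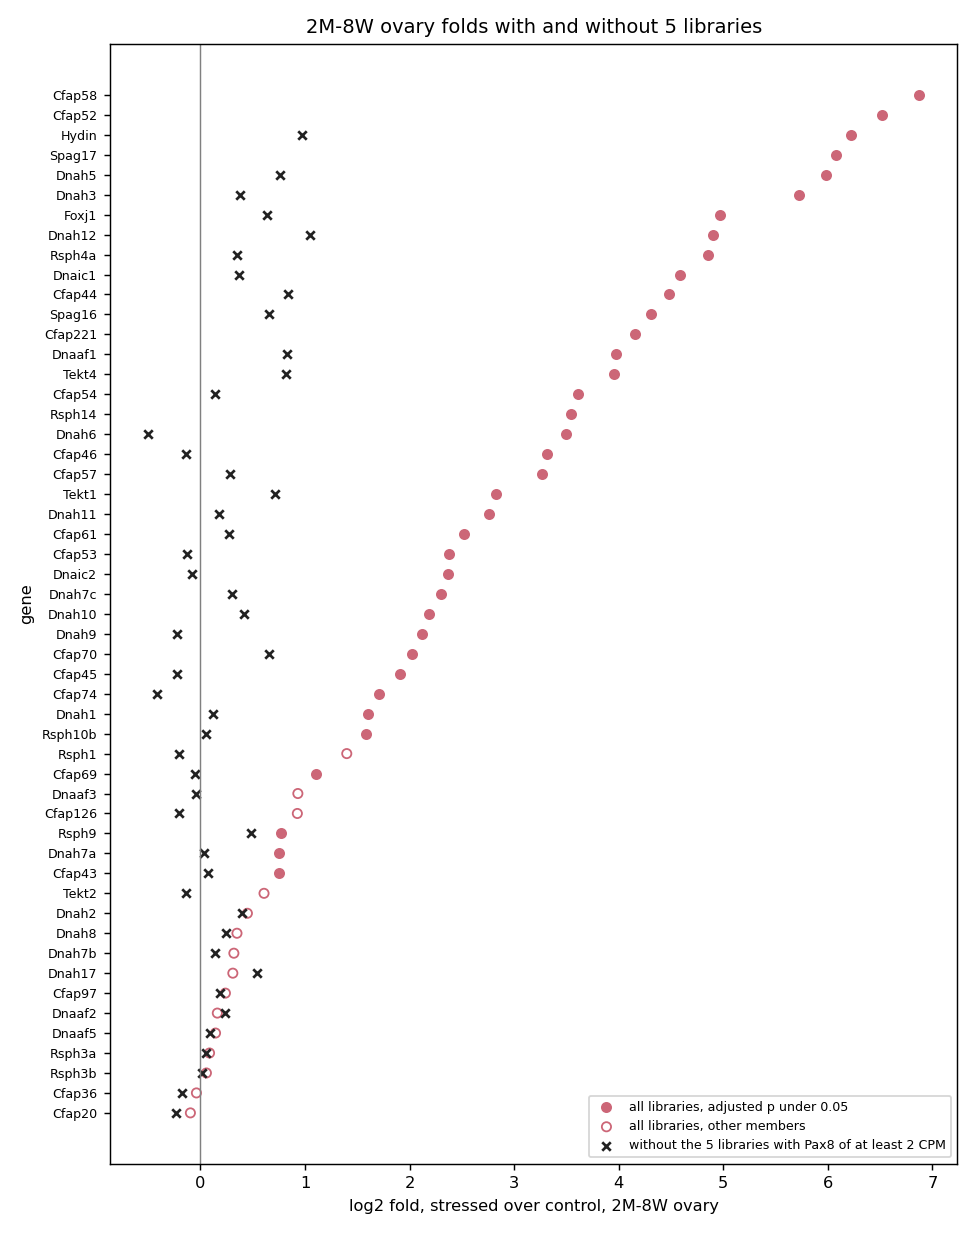
Each row is 1 of 52 members tested, and the horizontal axis is the log2 fold of stressed over control ovaries in the 2M-8W set. Filled circles passed the test with all libraries (37 members), open circles did not, and crosses are folds without the 5 libraries with Pax8 of at least 2 CPM (47 members could be fitted, median 0.17).

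Genes of the same programme outside the naming rule moved with the members in 2M-8W. Over all genes 3.96% were higher in this comparison. Of 45 tested among 46 other motile cilia genes, 33 were higher and 0 lower, with a median log2 fold of 2.61. These included Sntn, a protein of the ciliary tip (6.20, SE 1.37, edgeR adjusted p 0.0168), and Ccdc40, which sets the axonemal repeat (3.85, SE 0.80, edgeR adjusted p 0.0155). Of 12 tested among 16 genes listed as regulators of multiciliated cells 6 were higher. They were Myb (log2 fold 4.67), Ccdc78 (6.26), Gmnc (3.94), Rfx2 (0.69), Ift88 (0.54) and Plk4 (0.54). Ift88 and Plk4 were present in all ovaries, at no less than 21.4 and 13.2 CPM, and so are not particular to the high libraries. Mcidas, which starts the programme, had 0.408 CPM in 2M-8W stressed 1, 0.193 CPM in 2M-12W control 3 and at most 0.108 CPM elsewhere. Of 11 oviduct secretory markers tested 3 were higher (Pax8, Ovgp1 and Pax2), and of 9 markers of simple epithelia 8 were, among them Epcam (1.46) and Krt8 (0.94). Among 10 markers of the ovarian surface epithelium, Upk3b (1.02) and Msln (0.82) were also higher, at edgeR adjusted p of 0.0221 and 0.0406. The others of that list did not pass, and its folds without the 5 ovaries are not given. Of 10 ovary markers none was higher and Lhcgr, the receptor for luteinizing hormone, was lower (fell by 1.60 on the log2 scale). Without the 5 ovaries with the most Pax8 none of 43 other motile cilia genes, 11 regulators, 10 secretory markers, 9 epithelial markers and 10 ovary markers passed (edgeR), and the median log2 fold was 0.30 for the other cilia genes, 0.22 for the regulators and 0.46 for the epithelial markers. The part of these markers in the members' result was not tested. The 5 ovaries left out are also the 5 highest for Foxj1, so leaving them out cannot separate markers from members.

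In the 2M-12W set most members leaned the other way, with a median log2 fold of -0.59 and only 10 of 52 above 0, beside -0.01 over all genes. The 3 highest ovaries for Foxj1 in this set were controls 3 and 4 and stressed 2. Members past the test were 2 higher and 1 lower, where 6.74% of all genes passed. They were Dnah2 (log2 fold 1.69, SE 0.43, edgeR adjusted p 0.0186), Dnah7b (0.42, SE 0.13, edgeR adjusted p 0.0427) and Cfap36, which was lower (-0.31, SE 0.09, edgeR adjusted p 0.0383). None of these had the pattern of the high libraries. The Dnah2 call was kept in 8 of 14 alternatives and the other 2 in 4 of 14 each. Without the 5 ovaries the adjusted p was 0.164 for Dnah2 (fold 1.62), 0.201 for Dnah7b (0.38) and 0.241 for Cfap36 (-0.25). In the 6M-8W set edgeR called no member (0 had an unadjusted p under 0.05, and DESeq2 called 0), where 1.12% of all genes did. The members with the smallest p there were Rsph3b (-0.21), Dnah2 (0.84) and Cfap20 (-0.15). In the 6M-12W set 1 member passed, where 11.4% of all genes did and 5.18% as higher: Dnaaf5, a dynein arm assembly factor, at 38.3, 37.3, 36.7 and 37.1 CPM in stressed and 30.8, 29.2 and 32.6 CPM in control ovaries (log2 fold 0.23, SE 0.07, edgeR adjusted p 0.0381). Stressed and control ovaries did not overlap for it, and it passed in 5 of 13 alternatives.

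Dnah2 was one of the heavy chains that did not follow the high libraries. Of the 15 heavy chains, 9 had the 3 high ovaries as their 3 highest, Dnah7a had 2 of them there, Dnah7b, Dnah8 and Dnah14 had 1, and Dnah2 and Dnah17 had 0. Dnah2 encodes an inner arm heavy chain and lies on chromosome 11, 69420809 to 69549110, minus strand. Its controls were at 39.2, 19.3, 75.5 and 18.99 CPM in 2M-8W, 30.6, 6.79, 22.5 and 11.2 in 2M-12W, 8.84, 14.96, 36.4 and 14.9 in 6M-8W, and 23.7, 17.2 and 36.0 in 6M-12W. Stressed ovaries were at 65.6, 51.6, 45.5 and 49.8 CPM in 2M-8W, 33.3, 61.4, 81.2 and 59.0 in 2M-12W, 42.4, 29.4, 25.9 and 35.2 in 6M-8W, and 63.7, 67.6, 59.1 and 81.4 in 6M-12W. Stressed lay above all controls in both 12-week sets and overlapped with controls in both 8-week sets. All 16 stressed ovaries were above the mean of their own controls.

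Averaged over the 4 sets 4 members were higher and 1 lower in stressed ovaries, where 20.3% of all genes passed. Dnah2 had a log2 fold of 1.09 (SE 0.22, edgeR adjusted p 0.000955). Dnah8, an outer arm heavy chain known best from sperm, had 0.44 (SE 0.10, edgeR adjusted p 0.00287) and was above the mean of its own controls in 16 of 16 stressed ovaries, at 2.36 to 8.76 CPM over all libraries. Both passed in 36 of 36 alternatives, the one without the 5 ovaries included (adjusted p 0.00967 and 0.0271). Dnah7b (0.24, SE 0.06, edgeR adjusted p 0.00879) passed in 35 of 36, and Cfap36 (-0.15, SE 0.05, edgeR adjusted p 0.0230) in 34 of 36. Dnah7c (0.70, SE 0.25, edgeR adjusted p 0.0495) passed in 9 of 36, and its highest library was 2M-8W stressed 1. Without the 5 ovaries Dnah7b (0.19) and Dnah7c (0.31) did not pass.

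Of the 10 ovary markers 3 were higher and 1 lower in the mean of the sets, beside the 20.3% of all genes that passed. Inha, made by granulosa cells, had a mean log2 fold of 0.46 (SE 0.12, edgeR adjusted p 0.00569), and Nr5a1 and the oocyte gene Zp3 of 0.32 and 0.36 (adjusted p 0.0176 and 0.0364). Lhcgr was lower (fell by 0.66, adjusted p 0.0137). The other 6 did not pass: Fshr (0.42), Gdf9 (0.33), Amh (0.20), Cyp19a1 (0.15), Foxl2 (0.06) and Star (-0.58), at edgeR adjusted p of 0.0532 or more. Without the 5 ovaries 1 of the 10 passed, Inha. In 6M-12W Inha was at 4765, 3783, 4299.7 and 3962 CPM in stressed and 2172, 2418 and 2298 CPM in control ovaries, the groups being apart as for Dnah2. In 2M-8W its highest library was control 3 (4300.2 CPM), which is also the highest for Dnah2 (75.5 CPM). The part of these markers in the Dnah2 result was not tested.

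**Figure D4:**
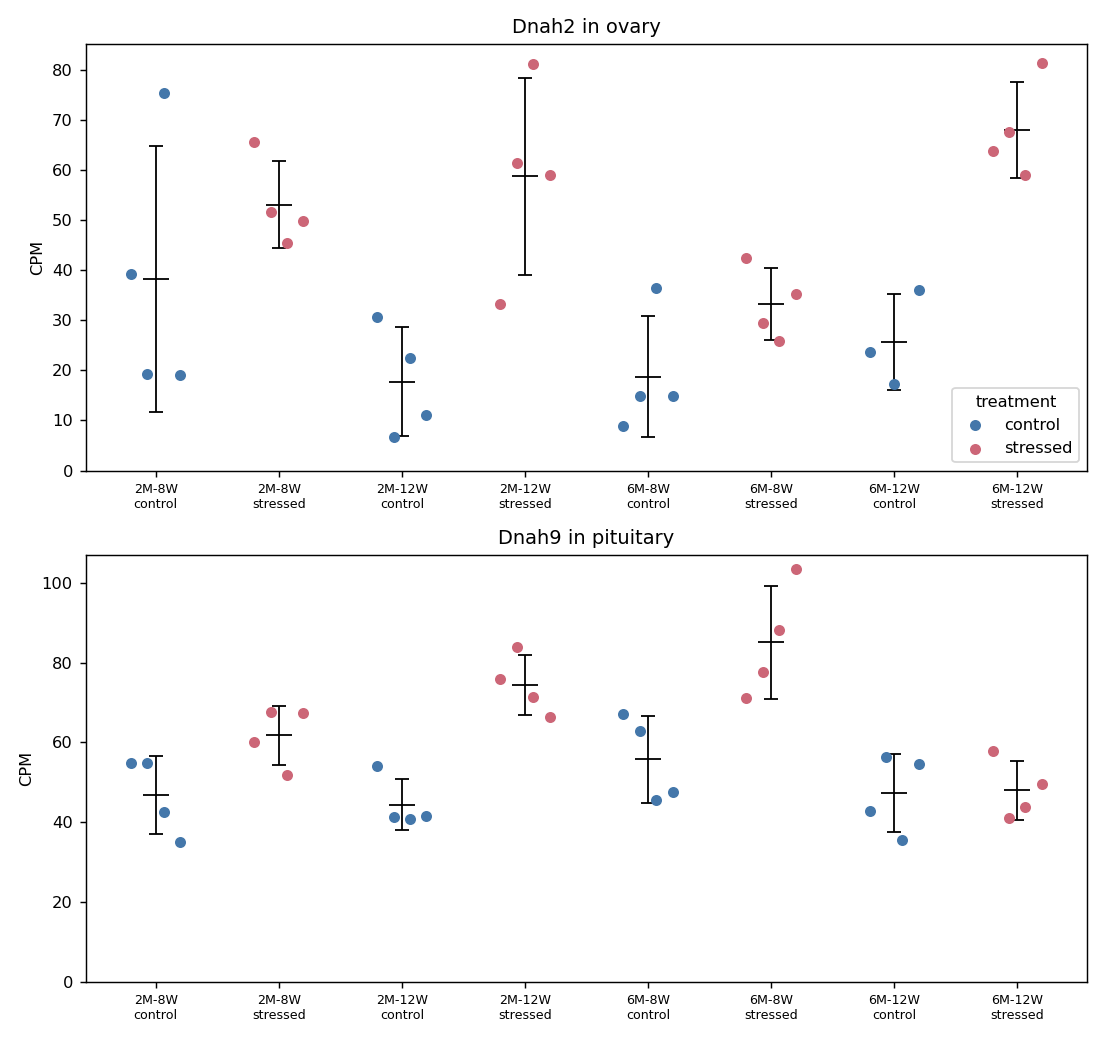
Points are CPM in single libraries, and black bars are the group mean with the SD (n = 4, or 3 for 6M-12W control ovaries). In ovary (top) Dnah2 was above all controls in both 12-week sets, at 33.3 to 81.2 CPM in 2M-12W and 59.1 to 81.4 CPM in 6M-12W, and in pituitary (bottom) Dnah9 was above all controls in 2M-12W and 6M-8W.

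Whether the response to stress differed with age was tested directly. At 8 weeks no member passed with edgeR, nor did any gene (0% of 17766), although 35 members had an unadjusted p under 0.05 and the median difference, 6-month minus 2-month, was -2.27. The smallest p values were those of Tekt4 (-5.48), Hydin (-7.14) and Cfap54 (-4.07), all at an adjusted p of 0.0820. DESeq2 called 23 members here, all lower, and edgeR without 2M-8W stressed 4 called 26. The share of all genes that passed was not set beside these counts. Without the 5 ovaries with the most Pax8 edgeR called 0. At 12 weeks no member passed with edgeR or DESeq2, with 2 at an unadjusted p under 0.05 and 0% of all genes called. The smallest p were those of Dnaaf5 (0.25), Tekt4 (3.19) and Dnaic2 (1.53), at an adjusted p of 0.327 or more. Between 6-month and 2-month control ovaries no member passed with edgeR or DESeq2, where 0.287% of all genes did. There 10 members had an unadjusted p under 0.05 and the median was -0.42, with Tekt1 (-1.37), Cfap44 (-1.68) and Dnah6 (-1.42) leading. 2M-12W controls 3 and 4 belong to the younger controls.

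In the pituitary the members formed an even baseline in their sum, with no library far above the rest. Their sum ran from 567 to 769 CPM with a median of 661, and the highest library was 2M-12W stressed 1. Among the 38 members with a median of at least 1 CPM, the highest library was 1.15 to 2.40 times the median (median 1.60). Among the 32 such members in ovary the same ratio ran from 1.16 to 49.8 (median 3.73). Members with a lower median are outside this ratio. Of these, Dnah3 (0.783 CPM) and Cfap52 (1.02 CPM) were highest in 6M-8W control 3, while Hydin, Dnah12 and Spag17 were highest in other pituitaries. The same control held high Ltf and Dmbt1, described below. Foxj1 was at 1.17 to 4.69 CPM in all 32 pituitaries, with a median of 3.26.

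On the FPKM scale 35 of 56 members had a higher median in pituitary than in ovary and 18 a lower one, as a description of tables that were normalized separately. The 6 highest in pituitary were Cfap20 (median 39.8 FPKM), Rsph3a (21.0), Cfap36 (20.9), Rsph3b (15.9), Rsph1 (10.9) and Rsph9 (10.1). The tektins Tekt1 and Tekt2 followed at 7.02 and 7.17 FPKM, against 0.396 and 0.638 in ovary. Among dynein heavy chains Dnah9, of the outer arm, and Dnah1, of the inner arm, stood highest at 2.95 and 2.58 FPKM, against 0.188 and 0.264 in ovary. Foxj1 was at 1.24 FPKM, against a median of 0.377 and a highest value of 37.4 FPKM in ovary.

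Other parts of the axoneme were close to absent from the same pituitaries. Spag17 had no count in 17 of 32 libraries and at most 0.251 CPM, and Cfap221 had no count in 24. Tekt3 had 1 count in all 32 libraries together, Dnah14 had 4 and Rsph6a had 0. Hydin had a median of 0.391 CPM, Tekt4 of 0.332 and Dnah3 of 0.0850 CPM, and the spoke head gene Rsph4a ran from 0.356 to 1.86 CPM. Members of the same role therefore lay far apart: Tekt1, Tekt2 and Rsph9 had medians of 13.1, 21.1 and 19.2 CPM in the same libraries. Dnaic1, of the outer arm, was at 3.20 to 7.98 CPM in pituitary, and Dnah5 at 2.22 to 8.65 CPM. Among regulators, Rfx3 and Rfx2 had medians of 67.6 and 22.3 CPM, and Mcidas had no count in 27 libraries.

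**Figure D5:**
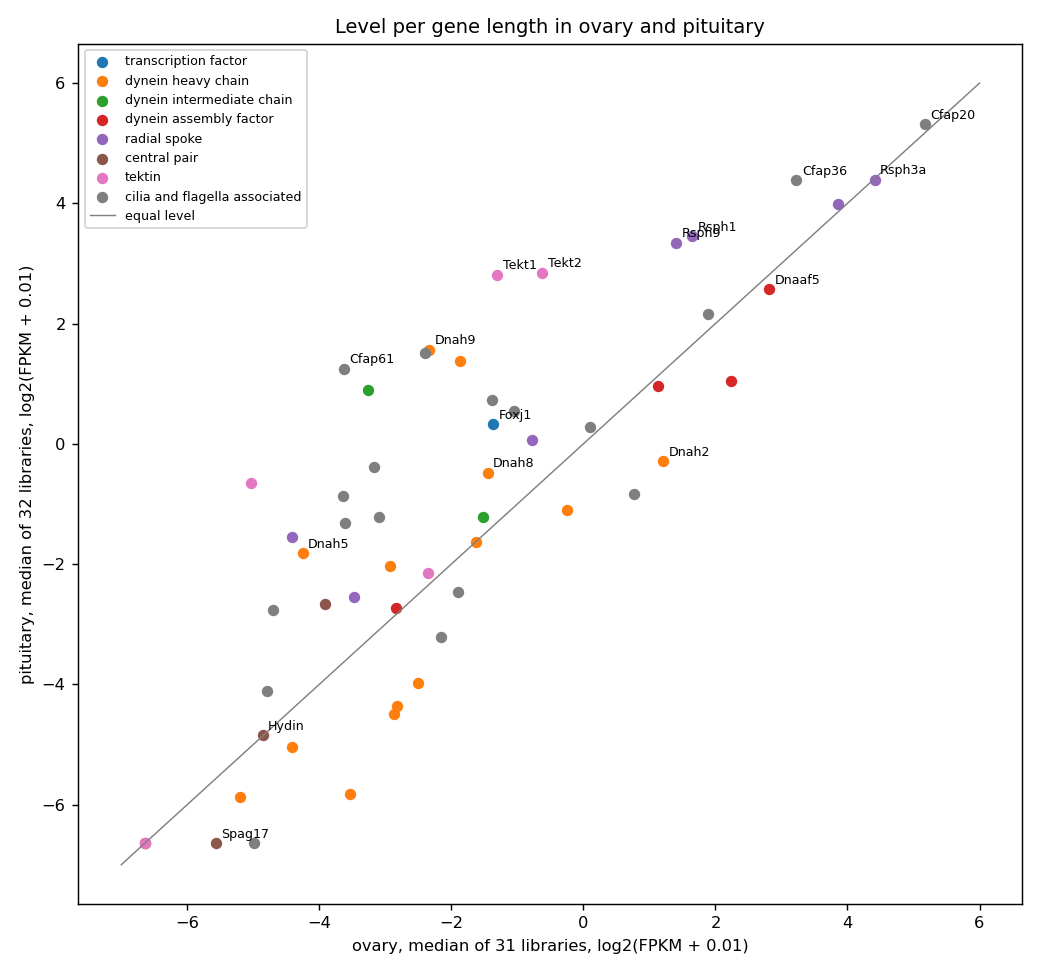
Each point is 1 of 56 members, coloured by role, with its median log2(FPKM + 0.01) in 31 ovaries on the horizontal and in 32 pituitaries on the vertical axis. Points above the grey line of equal level have the higher median in pituitary (35 members), among them Tekt1, Tekt2, Dnah9 and Cfap61, while Dnah2 lies below it.

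Stress against control was tested in the pituitary in the same way. In 2M-8W edgeR called no member (4 had an unadjusted p under 0.05, and DESeq2 called 0), where 0.424% of all genes did, and the smallest p were those of Dnah9 (0.37), Cfap46 (0.45) and Dnah8 (-0.40). In 2M-12W 1 member was higher, where 0.582% of all genes passed, 0.388% as higher. In 6M-8W 1 was higher and 2 lower, where 4.70% passed. In 6M-12W edgeR called no member (7 had an unadjusted p under 0.05, and DESeq2 called 0), where 0.276% of all genes did, led by Rsph4a (-0.95), Dnaaf2 (0.35) and Dnah8 (-0.46).

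Dnah9 (chromosome 11, 65831282 to 66168551, minus strand) was the member called in both sets. In 2M-12W it was at 54.0, 41.4, 40.7 and 41.5 CPM in controls and 76.0, 83.8, 71.4 and 66.3 CPM in stressed pituitaries, and the groups did not overlap (log2 fold 0.71, SE 0.15, edgeR adjusted p 0.0174). In 6M-8W it was at 67.1, 62.9, 45.5 and 47.4 CPM in controls and 71.0, 77.7, 88.3 and 104 CPM in stressed pituitaries, again with no overlap (log2 fold 0.64, SE 0.15, edgeR adjusted p 0.0093). In 2M-8W it was at 54.8, 54.7, 42.5 and 35.1 CPM in controls and 60.2, 67.6, 51.9 and 67.4 CPM in stressed, with overlap. In 6M-12W the groups overlapped widely, at 42.8, 56.2, 35.6 and 54.7 CPM in controls and 57.8, 41.0, 43.8 and 49.7 CPM in stressed. The 2M-12W call was kept in 8 of 14 alternatives and the 6M-8W call in 13 of 14. At 12 weeks its response differed between ages by -0.71 (SE 0.21), with an adjusted p of 0.443.

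Rsph14 and Cfap58 were lower in stressed 6M-8W pituitaries. Rsph14 was at 2.05, 1.19, 1.75 and 1.54 CPM in controls and 0.928, 0.573, 0.196 and 0.631 CPM in stressed (log2 fold -1.49, SE 0.37, edgeR adjusted p 0.0153). Cfap58 was at 1.25, 0.893, 0.662 and 1.07 CPM in controls and 0.398, 0.255, 0.392 and 0.270 CPM in stressed (log2 fold -1.52, SE 0.45, edgeR adjusted p 0.0448). Neither group of stressed libraries overlapped with its controls. The lowest stressed values, 0.196 CPM for Rsph14 and 0.255 CPM for Cfap58, were close to the limit of 3 counts (0.147 and 0.191 CPM in those libraries). The calls were kept in 11 and 6 of 14 alternatives. Of 40 other motile cilia genes tested in this set, 3 were lower, Ccdc113 and Lrrc6 among them, and 0 higher. Over all genes 4.70% passed in either direction. The median log2 fold of these 40 genes was -0.25. In the same set the corticotroph genes Pomc and Tbx19 were higher (0.93 and 0.82). Pomc had similar folds in 2M-8W (1.08), 2M-12W (0.92) and 6M-12W (0.95), with edgeR adjusted p of 0.0303, 0.072 and 0.0897. Control 3 of 6M-8W held Ltf and Dmbt1, secretory genes of airway type, at 78.5 and 67.2 CPM against medians of 0.324 and 0.108 CPM. Both were lower in stressed 6M-8W pituitaries (-5.39 and -5.78, edgeR adjusted p 0.0104 and 0.0302). Cyp2f2, another gene listed as airway type, was higher there (0.65, edgeR adjusted p 6.11e-05). The part of these markers in the members' results was not tested.

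Averaged over the 4 sets 3 members were higher and 2 lower in stressed pituitaries, where 6.44% of all genes passed, with a median of -0.02 over 47 members and 0.00 over all genes. Dnah9 had a log2 fold of 0.43 (SE 0.07, edgeR adjusted p 0.000341), was above the mean of its own controls in 14 of 16 stressed pituitaries and passed in 37 of 37 alternatives. Cfap44, one of the genes with an X-box-like match above, was higher (0.47, SE 0.13, edgeR adjusted p 0.0217) and Dnah8 was lower (-0.34, SE 0.09, edgeR adjusted p 0.0183), both kept in 36 of 37. They were lost without the 6M-12W controls 3 and 4 (adjusted p 0.0557 and 0.0511). Dnaic2, an outer arm intermediate chain, was lower (-0.49, SE 0.14, edgeR adjusted p 0.0370) and passed in 21 of 37, and Cfap54 was higher (0.32, SE 0.10, edgeR adjusted p 0.0466) and passed in 14 of 37. Dnah8 was therefore called higher in stressed ovaries and lower in stressed pituitaries, in fits made apart, and the difference between tissues was not tested. Of 40 other motile cilia genes 4 were lower in the mean, Lrrc6, Drc1 and Tppp3 among them, and 0 higher.

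The age differences in the response to stress called no member in pituitary with edgeR or DESeq2. At 8 weeks 0.182% of all genes passed and 6 members had an unadjusted p under 0.05, led by Rsph10b (-0.75), Cfap61 (-0.48) and Dnaic1 (-0.75). At 12 weeks 0.0235% of all genes passed and 8 members had an unadjusted p under 0.05, led by Dnah7b (-0.95), Dnah9 (-0.71) and Rsph4a (-1.45).

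Between 6-month and 2-month control pituitaries, 4 members were higher and 3 lower in the older animals, where 16.1% of all genes passed. Cfap54 (0.45, SE 0.14), Cfap36 (0.29, SE 0.09), Cfap97 (0.24, SE 0.07) and Cfap20 (0.15, SE 0.05) were higher, with edgeR adjusted p of 0.0272, 0.0282, 0.0151 and 0.0267. Foxj1 (-0.44, SE 0.15), the spoke head gene Rsph9 (-0.33, SE 0.11) and Tekt1 (-0.31, SE 0.09) were lower, with edgeR adjusted p of 0.0372, 0.0395 and 0.0241. Foxj1 was at 2.98 to 4.69 CPM in 8 younger controls and at 1.85 to 4.46 CPM in 8 older ones, and the groups overlapped. Rsph9 was at 5.62 and 10.03 CPM in 6M-12W controls 3 and 4, against 15.5 to 24.3 CPM in the other 14 controls, and Cfap36 was at 148 and 99.6 CPM in the same libraries. These 2 libraries were picked after the data were seen, as the lowest controls in Rsph9. Leaving them out is therefore no separate test of these calls. Without these 2 libraries no member passed (edgeR), and 450 genes of 17430 did. In them the pituitary markers summed to 165899 and 169256 CPM and the markers of simple epithelia to 340.2 and 453 CPM.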

How the data were processed

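RNA-seq of 31 ovary and 32 pituitary libraries was used. Per the labels, RNA came from a chloroform extraction and the library kit was NEBNext Ultra II RNA. The sources used here name no aligner, counting program, annotation or strand setting. The authors deposited, for each tissue, raw counts per gene and FPKM values (counts per gene length and library total). All FPKM values checked lay within 1% of the value recomputed from the counts. Positions are those of GRCm38, and 43 of 56 members have the position of GENCODE M21.

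CPM is the count scaled to the library total. Tissues were fitted apart, each with 8 groups, with edgeR 4.0.16 (R 4.3.3): filterByExpr, which left 17766 genes in ovary and 17001 in pituitary, TMM scaling, the quasi-likelihood F test, and a Benjamini-Hochberg adjusted p under 0.05 over all genes tested. SEs of log2 folds were taken as the absolute fold over the root of F. In each tissue 8 comparisons were made. The fit was tested on simulated data. Alternatives were DESeq2 1.42.0, RLE size factors, no filter, a fit of the compared groups alone, a block by replicate number, and each library left out. A further 2, added after seeing the data, left out other libraries. These were the 5 ovaries with at least 2 CPM of Pax8, or the 6M-12W control pituitaries 3 and 4, the lowest controls in Rsph9. Values reported as results use all libraries. Named members are the up to 10 past the test with the largest fold in a comparison (the 3 with the smallest p where none passed), the 6 with the highest mean FPKM in each tissue, and 28 core members; of other lists, up to 6 genes. Cfap221, Dnah1, Dnah7a, Dnah14, Rsph6a and Tekt3 were named after their values were seen. The members and lists were chosen with earlier results of these data known. The values of 1 gene of another list are not reported here. Promoters are RefSeq's.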

Additional observations from a re-analysis of the deposited data

Results flagged for a closer look

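For 10 quantities reported by library, the groups of 4 libraries were searched for a sample far from the other 3 of its group, 75 groups in all; chance flags about 1 in 20 groups, and 6 groups held one. In ovary these were Foxj1 at 2.45 CPM and Dnah5 at 1.67 CPM in 2M-8W control 3, the highest of their controls. Hydin stood out at 13.8 CPM in 2M-12W control 3 and at 3.50 CPM in 2M-12W stressed 2, both among the 5 ovaries with the most Pax8. In pituitary the summed level of the members in 6M-12W control 2 (689.95 CPM) and Dnah9 in 2M-12W control 1 (54.0 CPM) were above the other 3 of their groups. The 2M-8W stressed ovaries were not picked out; stressed 1 and stressed 3 were both high for these genes.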

How the results depend on the processing

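Of 50 calls of named members, 44 kept the sign of their fold in all alternatives that gave a value. The other 6 turned in 2M-8W ovary without the 5 Pax8 ovaries: Dnah6 (-0.50), Dnah9 (-0.23), Cfap45 (-0.22), Cfap46 (-0.14), Cfap53 (-0.13) and Dnaic2 (-0.077). Counts of members past the test depended more on the settings. In ovary, 2M-8W fell from 37 to 0 with its own groups only, to 2 with the replicate block and to 0 without the 5 Pax8 ovaries (0 to 39 with 1 library left out). The 2M-12W count of 3 became 1 with no filter, 0 with its own groups only, 0 with the block and 1 without the 5 ovaries (0 to 4). The 6M-12W count of 1 became 2 with DESeq2, 0 with no filter, 4 with its own groups only, 0 with the block and 2 without the 5 ovaries (0 to 2). The mean of the sets went from 5 to 3 with the block (3 to 10), and the age difference at 8 weeks from 0 to 23 with DESeq2 (0 to 26). In pituitary, 2M-12W went from 1 to 3 with DESeq2, 2 with its own groups only, 3 with the block and 2 without the 6M-12W controls 3 and 4 (0 to 2). The 6M-8W count went from 3 to 6 with DESeq2 and to 5 without those controls (1 to 4), 2M-8W ranged from 0 to 1 and the mean of the sets from 3 to 5. The age count of 7 in controls became 4 with no filter, 1 with its own groups only and 0 without the 2 controls (1 to 9). The cause of these shifts was not tested, other than that fits with fewer libraries or groups have less data. The shares of all genes that passed under these settings are not given beside the counts. Of the 5 pituitaries highest in summed CPM, 3 were among the 5 highest in summed FPKM. For the replicate block, correlations of the deviations of same-numbered samples ran from -0.33 to 0.22 in ovary (4 of 15 above 0.1) and from -0.11 to 0.34 in pituitary (5 of 16), and 4 and 7 pairs correlated best with their own number. In the 2M-8W ovary set, where the block left 2 calls of 37, 3 of 4 pairs were above 0.1 (0.10, 0.22 and 0.19) and best with their own number, and the other was at -0.01. No set had all its pairs above 0.1, and the labels name no shared source for a number, so the numbers were not taken to pair the samples. Members with few counts, such as Spag17 and Cfap58, are limited by depth. The limit of 3 counts covers counting error only, whereas SEs and p-values also cover the spread between libraries.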
